A study of Mus musculus with 13 samples.

Results

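The genes described here are 10 markers of the damage-associated transitional state of the alveolar epithelium, a Krt8-positive state between alveolar type 2 and alveolar type 1 cells: Krt8, Krt18, Krt19, Krt7, Cldn4, Sfn, Lgals3, Sprr1a, Tnip3 and Anxa1. They were taken by symbol from the count table of 32544 gene symbols, which holds all 10, and Cdkn1a was added for context. The libraries came from the lungs of wild-type (WT) male C57BL/6J mice bought at 7 weeks of age and were made to compare lung gene expression between 2 oxygen levels. The Normoxia group (7 libraries) was kept at 21% oxygen and the Hyperoxia group (6 libraries) at 80% oxygen, each for 5 days, and the lungs were perfused before RNA was taken. Sftpc, Ager and Scgb1a1, which mark alveolar type 2, alveolar type 1 and club cells of the lung, were detected in every library. The RNA is from whole lung, so that fewer cells of a type and less RNA per cell cannot be told apart. The labels number the libraries within a group and do not tie each to an animal, and p-values therefore measure the spread between these samples.

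Alveolar type 2 cells make surfactant and act as progenitors of the thin alveolar type 1 cells that carry gas exchange. After lung injury, cells on the way from type 2 to type 1 pass through a state that is known for high keratin 8, a spread-out shape, and expression of p53 and stress-response genes. Several of the markers are not particular to this state, since simple keratins are also made in airway and mesothelial cells, and Lgals3 and Anxa1 are strongly expressed in macrophages and other leukocytes.

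Each value was obtained by Quant-seq, which sequences the 3′ end of polyadenylated transcripts, and is given as counts per 1000000 counts of the library (CPM) after scaling of the libraries by the trimmed mean of M-values (TMM). Total counts ran from 1607111 to 4540288 per library. One library, Hyperoxia 1, stood apart. Its highest correlation with any other library was 0.833, whereas the lowest among the other 12 was 0.854, and it had 601 tested genes at a count of 0, against 8 to 77 elsewhere. Of all genes tested, 14% were at least 4-fold lower in Hyperoxia 1 than the mean of the other 5 hyperoxic libraries and 0.616% at least 4-fold higher. Since 4 of the 8 tested markers were at least 4-fold lower there, the fold changes of the markers are given with and without this library.

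The sequences shown are from Cldn4 and Sprr1a, the markers whose promoter window held a match to the AP-1 motif TGANTCA, which is bound by Jun and Fos factors and reads the same on both strands. The windows ran from 250 bases before to 50 after each RefSeq start site (GRCm38.p6), and entries were found for 9 of the 10 markers, Krt19 having none. TGANTCA was present in 2 of these 9 genes and in 7.81% of all 32851 windows. Here and for the motifs below, the markers are counted by gene and the background by window. A gene can have several windows, so these shares are not in the same unit. Each match is printed in capitals with 10 bases on either side, on the strand of the gene, and a match is a description of the letters and not a measured site.
Cldn4, chr5:134947158-134947184, minus strand, motif from base -240: tctaggctggTGACTCAgtgtctgtgt
Cldn4, chr5:134947076-134947102, minus strand, motif from base -158: tactggcgggTGACTCAggggcccagg
Sprr1a, chr3:92486011-92486037, minus strand, motif from base -146: taactaaagcTGAGTCAgagggtgaac
Sprr1a, chr3:92485981-92486007, minus strand, motif from base -116: gggaggagggTGAGTCAtaggtgactg
Other motifs were searched on both strands in the same windows. GGAATG, the TEAD motif, was found in Anxa1 alone among the markers and in 14.7% of all windows. The GC box GGGCGG was found in Cldn4, Krt7 and Lgals3 and in 35.7% of all windows. TATAAA was found in Anxa1, Krt8, Sprr1a and Tnip3 and in 13.6% of all windows, and the pair of matches in Krt8, 1 on each strand, overlapped. A single p53 half-site was found in Anxa1 among the markers and in 8.36% of all windows.

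In the annotation of GRCm38, all 10 markers are protein-coding genes. Krt8 (chr15:101996698-102004482, minus strand) and Krt18 (chr15:102028180-102032027, plus strand), which encode the type II and type I partners of the keratin pair of simple epithelia, point away from each other with 23697 bases between their 5′ ends and 0 annotated genes wholly between them. Krt7 lies on the same chromosome (chr15:101411043-101430313, plus strand), and Krt19 lies on chromosome 11 (chr11:100140810-100148665, minus strand). The other markers are spread over 6 further chromosomes: Cldn4 (chr5:134945119-134946934), Sfn (chr4:133600556-133602168), Lgals3 (chr14:47367751-47386160), Sprr1a (chr3:92483952-92485895), Tnip3 (chr6:65525313-65634040) and Anxa1 (chr19:20373428-20390944). Krt8, Krt7 and Anxa1 each overlap 1 annotated gene on the opposite strand, none of which has a row of its own in the count table. Whether the counting used strand is not given in the sources used here.

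Most of the markers were more abundant in hyperoxic than in normoxic lung. In all 13 libraries, Krt18, Krt7, Lgals3 and Sfn rose, with ratios of the group means of 2.02, 2.22, 3.78 and 4.54, and so did the sparsely counted Cldn4 in a fit without a filter on low counts. Krt8, Krt19 and Anxa1 did not pass the test with all libraries and rose when Hyperoxia 1 was left out, with ratios of 2.81, 2.77 and 1.58. Tnip3 showed a difference close to 0 in either case. The plot of CPM by library shows each of the 10 genes.

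**Figure D1:**
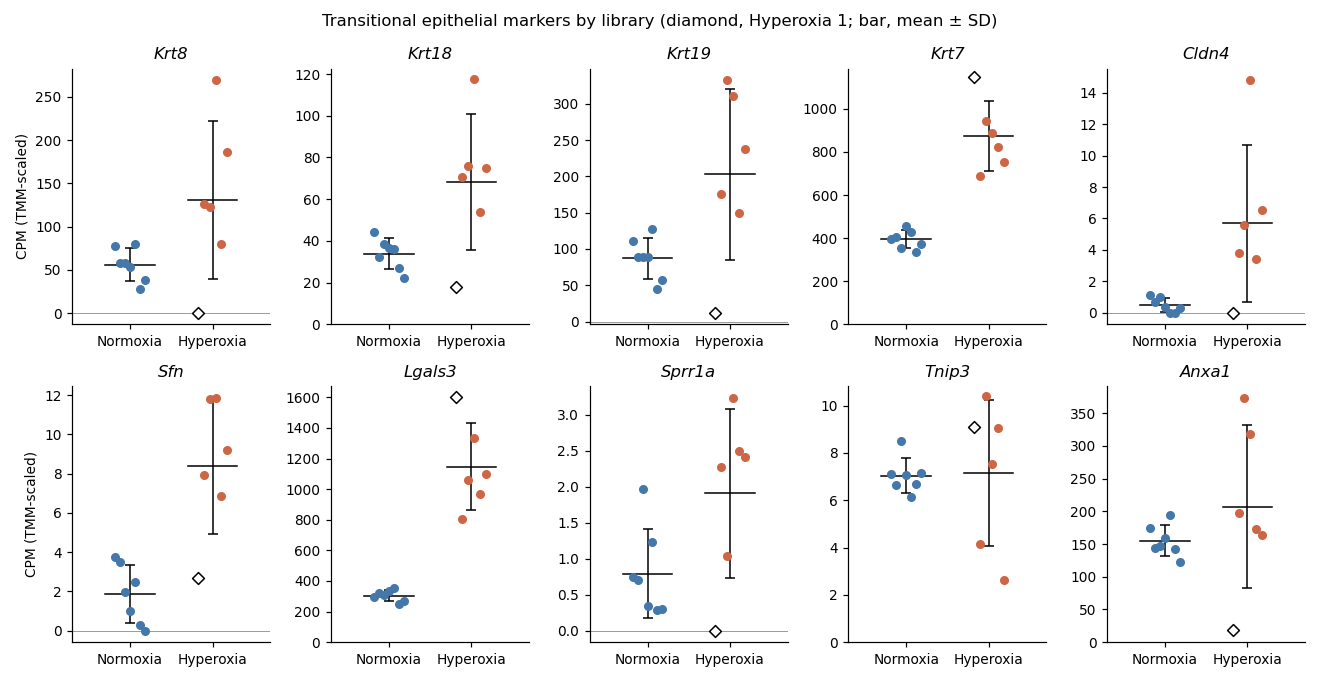
Level of each marker in CPM (TMM-scaled, linear axis) in the 7 Normoxia and 6 Hyperoxia libraries, with 1 point per library, the mean as a horizontal bar and the SD as an error bar. The open diamond is Hyperoxia 1, which lies below all Normoxia libraries for Krt8, Krt18, Krt19 and Anxa1 and above all other libraries for Krt7 and Lgals3.

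Krt8, which encodes the type II keratin that gives the state its name, had a lowest, median and highest level of 27.3, 58.0 and 80.3 CPM in Normoxia and of 0.536, 124 and 269 CPM in Hyperoxia. The lowest of these values is a single count in Hyperoxia 1, below the level of 1.61 CPM that 3 counts give in that library, and the other 5 hyperoxic libraries (80.33 to 269 CPM) all lay above the highest normoxic one (80.26 CPM), by a narrow margin for the nearest pair. With all libraries the log2 fold change of Krt8 was 1.24 (SE 0.57) with an adjusted p of 0.131 in edgeR's quasi-likelihood test. It was smaller with limma-voom (0.46, adjusted p = 0.774) and with limma on the deposited log10 CPM values (0.28, adjusted p = 0.857). Without Hyperoxia 1 it was 1.51 (SE 0.28) with an adjusted p of 7.0e-04, a ratio of means of 2.81. Krt8-ps, a processed pseudogene of Krt8 on chromosome 7, had 9 counts in Hyperoxia 1 and 0 in each of the other 12 libraries. Together these make 10 counts in Hyperoxia 1, against 98 or more counts of Krt8 in each of the other libraries, and whether reads were shared between Krt8 and Krt8-ps was not tested.

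Krt18, the type I partner of Krt8, ranged from 22.3 to 44.4 CPM in Normoxia (median 36.1) and from 17.7 to 118 CPM in Hyperoxia (median 72.8). Again Hyperoxia 1 was the lowest of all libraries and the other 5 (53.8 to 118 CPM) were above the whole normoxic range. The log2 fold change was 1.03 (SE 0.30, adjusted p = 0.0199, edgeR) and, without Hyperoxia 1, 1.24 (SE 0.19, adjusted p = 1.67e-04). The rise with all libraries did not pass the threshold with limma-voom (0.93, adjusted p = 0.0567) or with limma on the deposited log10 CPM values (0.76, adjusted p = 0.129).

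Krt19, a type I keratin without a fixed partner, had a lowest, median and highest level of 44.9, 89.3 and 128 CPM in Normoxia and of 12.3, 206 and 332 CPM in Hyperoxia. Here too the groups overlapped through Hyperoxia 1 alone, since the remaining hyperoxic libraries began at 149 CPM. Its log2 fold change was 1.23 (SE 0.45, adjusted p = 0.0627, edgeR) with all libraries and 1.497 (SE 0.24, adjusted p = 2.61e-04) without Hyperoxia 1. With all libraries Krt19 passed the threshold with DESeq2 (1.23, adjusted p = 0.0266) and not with limma-voom (0.85, adjusted p = 0.334) or with limma on the deposited log10 CPM values (0.71, adjusted p = 0.44).

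Krt7, a type II keratin of simple epithelia, behaved otherwise in Hyperoxia 1. It ran from 337 to 457 CPM in Normoxia (median 395) and from 688.5 to 1147 CPM in Hyperoxia (median 855), where the highest value was that of Hyperoxia 1. The groups did not overlap. The log2 fold change was 1.15 (SE 0.14, adjusted p = 3.46e-05, edgeR) and 1.07 (SE 0.12, adjusted p = 6.33e-06) without Hyperoxia 1.

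Sfn, which encodes 14-3-3 sigma, a p53-responsive checkpoint protein of epithelia, was counted at 0 to 10 reads per library in Normoxia (0 to 3.73 CPM, median 1.96) and at 5 to 44 reads in Hyperoxia (2.68 to 11.8 CPM, median 8.56). Hyperoxia 1, with 5 reads, was the hyperoxic library inside the normoxic range. The log2 fold change was 2.25 (SE 0.54, adjusted p = 0.00686, edgeR) and 2.44 (SE 0.49, adjusted p = 0.00149) without that library.

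Cldn4, a tight junction claudin, was too low for the filter on counts when all libraries were used, with 10 counts in all over the 7 Normoxia libraries (0 to 3 each) and 122 over the 6 Hyperoxia libraries (0 to 55 each). The 0 among the hyperoxic libraries was Hyperoxia 1, and the other 5 held 10, 11, 16, 30 and 55 counts, each above the highest normoxic count. In a fit without the filter (19718 genes) the log2 fold change was 3.48 (SE 0.69, adjusted p = 0.0020, edgeR). Without Hyperoxia 1, Cldn4 passed the filter and its log2 fold change was 3.70 (SE 0.55, adjusted p = 1.21e-04). It passed through the 5 hyperoxic libraries alone, with 0 normoxic libraries at the level required. Its direction in that fit was therefore fixed by the filter, and the p-value adds no support. The fitted fold change of a gene this low depends on the prior count. The SEs include the spread between libraries, whereas a floor of 3 counts covers counting error only.

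Lgals3, which encodes galectin-3, a secreted and intracellular lectin, ranged from 249 to 352 CPM in Normoxia (median 305) and from 808 to 1604 CPM in Hyperoxia (median 1080). The groups did not overlap, and Hyperoxia 1 was the highest of all libraries. The log2 fold change was 1.92 (SE 0.16, adjusted p = 1.21e-06, edgeR), and 1.81 (SE 0.13, adjusted p = 9.72e-08) without Hyperoxia 1.

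Anxa1, which encodes annexin A1, a calcium-dependent phospholipid-binding protein that limits inflammation, ran from 123 to 194 CPM in Normoxia (median 147) and from 19.3 to 373 CPM in Hyperoxia (median 185). The groups overlapped also without Hyperoxia 1, as Hyperoxia 5 (172 CPM) and Hyperoxia 6 (164 CPM) were inside the normoxic range. The log2 fold change was 0.43 (SE 0.39, adjusted p = 0.48, edgeR), and 0.68 (SE 0.20, adjusted p = 0.0171) without Hyperoxia 1.

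Sprr1a, a cornified envelope precursor also made in stressed simple epithelia, held 1 to 6 counts per library in Normoxia and 0 to 12 in Hyperoxia, 15 and 40 counts in all, and did not pass the filter with or without Hyperoxia 1. In the fits without the filter its log2 fold change was 1.36 (SE 0.60, adjusted p = 0.152, edgeR) with all libraries and 1.57 (SE 0.54, adjusted p = 0.0488) without Hyperoxia 1, and the groups overlapped in both. Tnip3, which encodes an A20-binding inhibitor of NF-kappaB signalling, ran from 6.13 to 8.50 CPM in Normoxia (median 7.06) and from 2.62 to 10.4 CPM in Hyperoxia (median 8.30). The hyperoxic libraries lay on both sides of the normoxic range, 3 above and 2 below it, and the log2 fold change was 0.0015 (SE 0.32, adjusted p = 0.999, edgeR), and -0.05 (SE 0.31, adjusted p = 0.916) without Hyperoxia 1. Its counts ran from 10 to 30 per library, and its SD was 3.09 CPM in Hyperoxia and 0.739 CPM in Normoxia.

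**Figure D2:**
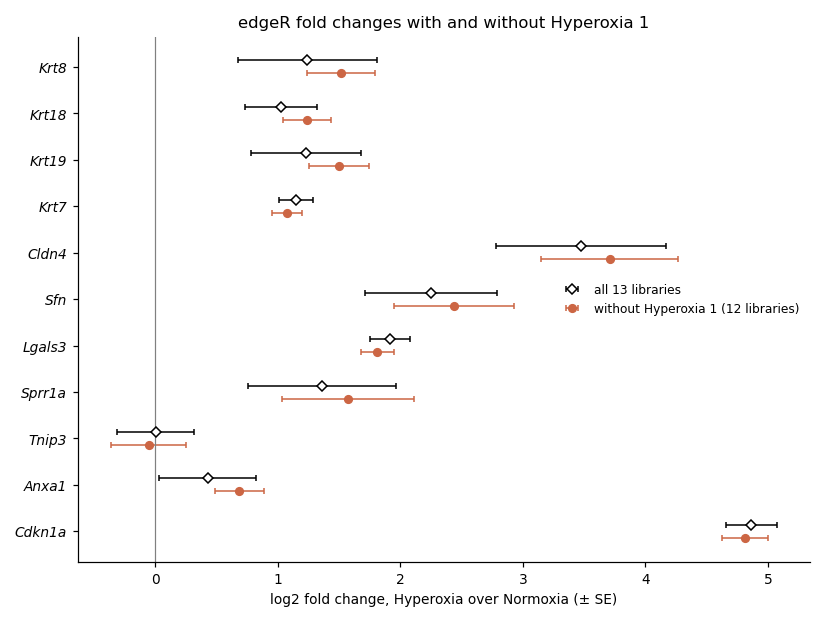
Log2 fold change of Hyperoxia over Normoxia (horizontal axis, ± SE) from edgeR for the 10 markers and Cdkn1a, with all 13 libraries (open diamonds) and without Hyperoxia 1 (filled circles). Cldn4 and Sprr1a are from the fits without a filter on low counts. The standard error of Krt8 is 0.57 with all libraries and 0.28 without Hyperoxia 1.

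Of the 10 markers, 8 passed the filter with all libraries, and 4 of these (Krt18, Krt7, Sfn and Lgals3) rose at an adjusted p under 0.05, where 11.8% of the 12496 genes tested rose. None of the 8 fell with edgeR, DESeq2 or limma-voom, and 0 were lower at an unadjusted p under 0.05 in edgeR, where 10.8% of all genes tested fell at the adjusted threshold. The median log2 fold change was 1.19 over the 8 markers and -0.03 over all genes tested. Sfn and Lgals3 also exceeded a log2 fold change of 1.5, as 1.55% of all genes tested did in the upward direction. In 2 of the 10 markers (Krt7 and Lgals3) every hyperoxic library was above every normoxic one, and 5.6% of the genes tested showed this. Across all genes tested, 1473 rose and 1346 fell under TMM scaling, and this balance moved with the scaling, to 1907 higher and 877 lower when the libraries were scaled to pan-epithelial markers and to 1039 higher and 1712 lower with limma on the deposited log10 CPM values.

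Without Hyperoxia 1, 7 of the 8 markers tested with all libraries rose, the exception being Tnip3, where 15.2% of the 12752 genes tested rose. Their median log2 fold change was 1.37, against -0.01 over all genes tested. Cldn4 was tested in addition and rose, but it passed the filter through the 5 hyperoxic libraries alone, with 0 normoxic libraries at the level required, and so had to differ. Sfn reached that level in 2 normoxic and 5 hyperoxic libraries, with or without Hyperoxia 1, and its entry likewise rests mostly on the group where it was high. None of the 8 fell in edgeR, and 0 were lower at an unadjusted p under 0.05, where 13.3% of all genes tested fell. The groups did not overlap in 7 of the 10 markers (Krt8, Krt18, Krt19, Krt7, Cldn4, Sfn and Lgals3), compared with 8.47% of the genes tested. With no filter on low counts as well, 9 of 10 rose, where 9.35% of 19658 genes rose. Leaving out any other single library changed the call of no marker.

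The level of the markers was also set against the epithelium as a whole. The 10 pan-epithelial markers, whose summed level ran from 372 to 429 CPM in Normoxia and from 281 to 395 CPM in Hyperoxia (281 CPM in Hyperoxia 1), held 1 gene that fell, where 10.8% of all genes tested fell. It was Nkx2-1, a lung epithelial transcription factor, with a log2 fold change of -0.95 (adjusted p = 5.16e-04, edgeR). Epcam, an epithelial adhesion molecule, had a log2 fold change of 0.11 (adjusted p = 0.644). Without Hyperoxia 1, 1 gene rose, Esrp1 (0.62, adjusted p = 0.0217, edgeR), and 1 fell, where 15.2% and 13.3% of all genes tested did. Per count of this list, Krt7, Sfn and Lgals3 were higher in every hyperoxic than in every normoxic library, and without Hyperoxia 1 this held also for Krt8, Krt18, Krt19 and Cldn4. The share of all genes that separated in this way was not counted. Scaling to this list lifted genes in general, with 1907 of all genes tested higher, 877 lower and a median log2 fold change of 0.12. Mean Krt8 was 0.14 per pan-epithelial count in Normoxia and 0.351 in Hyperoxia (0.421 without Hyperoxia 1). The mean of Lgals3 was 0.765 in Normoxia and 3.31 in Hyperoxia (2.83 without Hyperoxia 1).

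Marker lists of the cell types on either side of the transitional state were followed in the same fit. Of 12 alveolar type 2 markers, 9 fell, where 10.8% of all genes tested fell, with a median log2 fold change of -1.26 against -0.03 over all genes tested, and their summed level dropped from a range of 16241 to 27926 CPM in Normoxia to 4974 to 9340 CPM in Hyperoxia. Sftpc, the surfactant protein that defines type 2 cells, had a log2 fold change of -2.72 (SE 0.60, adjusted p = 0.0042, edgeR), and Lamp3, of the lamellar body membrane, one of -1.73 (SE 0.12). Abca3, the lamellar body lipid transporter, and Cxcl15, lungkine, had values of -1.27 and -1.25. Of 14 alveolar type 1 markers, 1 rose and 1 fell, with a median of 0.02, where 11.8% of all genes tested rose. The difference between the lists was not tested. Ager, their defining gene, had a log2 fold change of -0.11 (adjusted p = 0.765). Akap5, a kinase-anchoring protein, rose by 1.20 and Rtkn2 fell by 0.95. Without Hyperoxia 1, 10 type 2 markers fell, and of the type 1 markers 2 rose and 3 fell, where 15.2% of all genes tested rose and 13.3% fell.

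**Figure D3:**
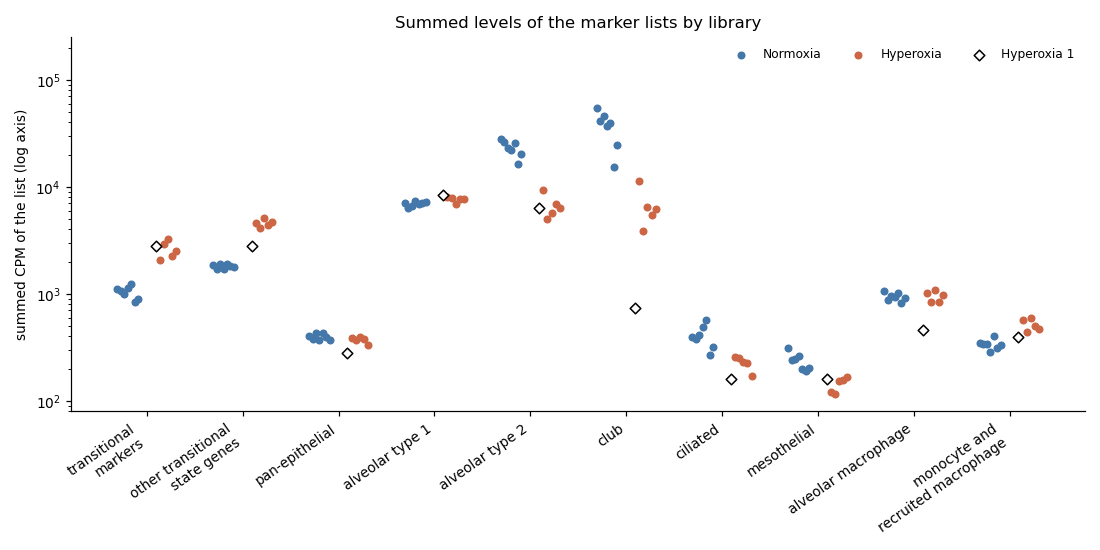
Summed CPM (logarithmic axis) of the 10 transitional markers and of 9 other marker lists in each library, with Normoxia and Hyperoxia side by side and Hyperoxia 1 as an open diamond. The transitional sums, to which Krt7 and Lgals3 contribute most of the CPM, are 834 to 1230 CPM in Normoxia and 2084 to 3275 CPM in Hyperoxia. The alveolar type 2, club, ciliated and mesothelial sums are lower in every hyperoxic than in every normoxic library.

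Other cell types that express some of the markers were followed in the same libraries, and their part in the results was not tested. Club cell markers summed to 15367 to 54795 CPM in Normoxia and 740 to 11327 CPM in Hyperoxia, where the lowest sum is that of Hyperoxia 1 and the next 3844 CPM. Of these 8 genes 3 fell with all libraries and 5 without Hyperoxia 1, where 10.8% and 13.3% of all genes tested fell, among them with all libraries Scgb1a1, the club cell secretory protein (-2.96, adjusted p = 0.0019, edgeR). Ciliated cell markers summed to 267 to 572 CPM in Normoxia and 160 to 255 CPM in Hyperoxia, with 3 of 9 tested lower, also read against 10.8%, and Foxj1, the ciliogenesis factor, at -0.01 (adjusted p = 0.994). Mesothelial markers, from cells that also make Krt8, Krt18, Krt19 and Krt7, summed to 190 to 315 CPM in Normoxia and 116 to 167 CPM in Hyperoxia, with 4 of 7 tested lower against the same share and Msln, mesothelin, at -0.23 (adjusted p = 0.774). Of 8 basal cell markers 1 was tested, and it fell (Dapl1, -1.49), while Krt5, the defining basal keratin, did not exceed 1.23 CPM in any library. In these 4 lists edgeR called 0 genes higher, with 0 also at an unadjusted p under 0.05 and 0 with DESeq2 or limma-voom.

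Leukocyte lists bear on Lgals3 and Anxa1. Over all genes tested, 11.8% rose and 10.8% fell. The alveolar macrophage list, of which 1 gene rose and 5 of 11 fell, summed to 815 to 1075 CPM in Normoxia and 460 to 1089 CPM in Hyperoxia, with the lowest value in Hyperoxia 1 and the next at 832 CPM. Without Hyperoxia 1, 2 genes of this list rose. Marco, a scavenger receptor and the defining gene of the list, had a log2 fold change of 0.98 (adjusted p = 0.183, edgeR) and of 1.18 (adjusted p = 0.0688) without Hyperoxia 1. Mrc1, the mannose receptor, rose by 0.72 and Fabp5 and Ear2 had log2 fold changes of -0.97 and -2.04. The monocyte and recruited macrophage list, of which 4 rose and 3 fell among 12 tested, summed to 288 to 402 CPM in Normoxia and 396 to 590 CPM in Hyperoxia. Gpnmb, a glycoprotein of lipid-laden macrophages, rose by 1.62 (adjusted p = 2.61e-04, edgeR), Trem2, a lipid receptor, by 1.61 and Spp1, osteopontin, by 1.64. Ccr2, the chemokine receptor of classical monocytes, had a log2 fold change of -0.85. Of 6 tested neutrophil markers 1 rose (Mmp8, 1.95), and S100a8 was at -0.18 (adjusted p = 0.792). How much of the Lgals3 rise lay in epithelium and how much in macrophages cannot be told apart in whole-lung RNA.

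The transitional state is also described by growth factors, p53 targets and matrix genes, and 20 such genes outside the 10 markers were examined. Of 19 that passed the filter, 12 rose and 1 fell, where 11.8% of all genes tested rose and 10.8% fell, with a median log2 fold change of 1.07 against -0.03 over all genes tested, and their summed level was 1699 to 1907 CPM in Normoxia and 2779 to 5171 CPM in Hyperoxia, the lowest hyperoxic sum being that of Hyperoxia 1. Hbegf, an EGF receptor ligand, went from 79.0 to 111 CPM in Normoxia to 218 to 405 CPM in Hyperoxia (log2 fold change 1.67, SE 0.15). Hif1a, the oxygen-regulated transcription factor, went from 47.4 to 74.6 CPM to 138 to 232 CPM (1.73, SE 0.16). Areg, amphiregulin, another EGF receptor ligand, went from 4.19 to 14.5 CPM to 32.7 to 126 CPM (3.06, SE 0.32). In these 3 genes the groups did not overlap, Hyperoxia 1 included. The gene that fell was Clu, clusterin (-0.85, adjusted p = 0.0214, edgeR), named after its values were seen. Fn1 (0.87, adjusted p = 0.0173, edgeR) is named because it was also counted in the monocyte and recruited macrophage list. Which cell types carried the rises in this list cannot be told apart in whole-lung RNA.

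Without Hyperoxia 1, 15 of the same 19 genes rose and Clu alone fell, with a median of 1.30, where 15.2% of all genes tested rose and 13.3% fell. Gdf15 entered the test through the hyperoxic libraries alone and so had to differ. It is a stress-induced cytokine and p53 target, also named after its values were seen, and was listed at 0 to 0.613 CPM in Normoxia, at 0.536 CPM in Hyperoxia 1 and at 14.2 to 80.9 CPM in the other hyperoxic libraries. The plot of this list gives the fold changes of the 19 other genes with and without the library.

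**Figure D4:**
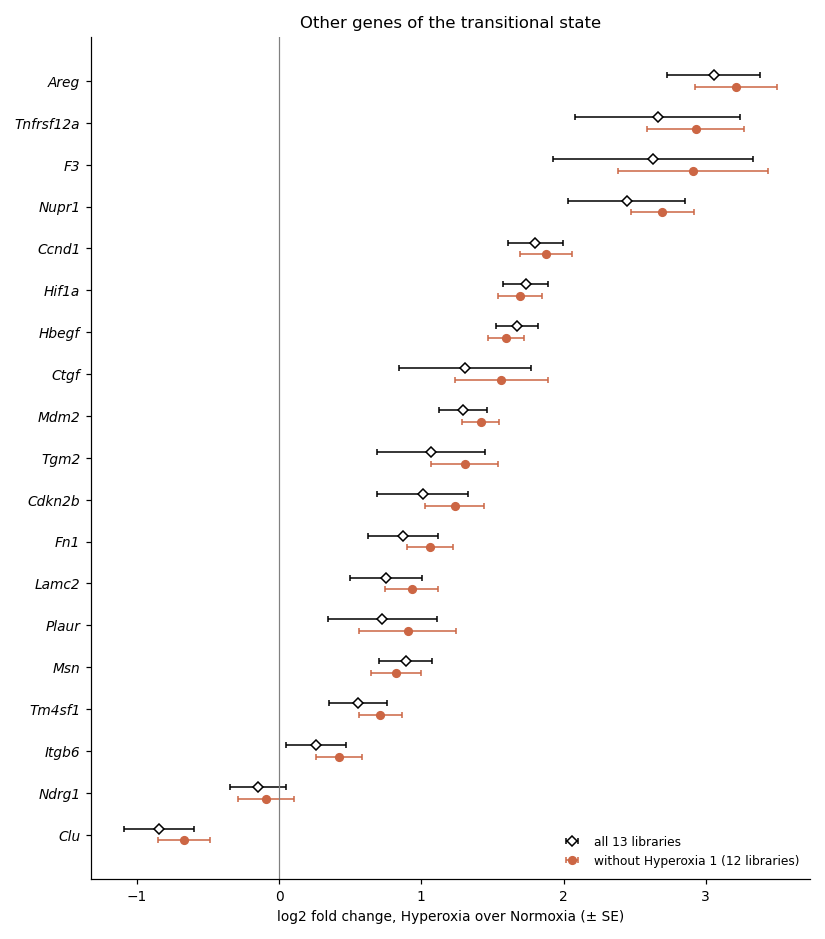
Log2 fold change of Hyperoxia over Normoxia (± SE) from edgeR for the 19 other genes of the transitional state that were tested in all 13 libraries (open diamonds), with the values without Hyperoxia 1 (filled circles). Areg is at 3.06 and Clu at -0.85 with all libraries.

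Cdkn1a, the p21 cell cycle inhibitor and a p53 target that is high in transitional cells, is given as context. It ran from 31.9 to 64.3 CPM in Normoxia (median 45.2) and from 1089 to 1728 CPM in Hyperoxia (median 1371), and Hyperoxia 1 was the highest of all libraries. The log2 fold change was 4.86 (SE 0.21, adjusted p = 1.09e-09, edgeR) and 4.81 without Hyperoxia 1. Hyperoxia 1 therefore carried the hyperoxic level of Cdkn1a, Krt7 and Lgals3, while its Krt8 was a single count and its log2 difference from the mean of the other 5 was -4.15 for Krt19, -3.54 for Anxa1 and -2.06 for Krt18.

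The gene families of the markers are given beside the shares of all genes tested. With all libraries 11.8% rose and 10.8% fell, and without Hyperoxia 1 these shares were 15.2% and 13.3%. With so few genes a family's count is not read as differing from them. Among the 14-3-3 genes 3 of 7 rose, Sfn with the log2 fold change given above, Ywhae by 0.73 and Ywhaz by 0.62. Of 8 galectins tested 2 rose, Lgals3 and Lgals1 (0.90, adjusted p = 0.00638, edgeR). Of 10 annexins tested 2 rose, Anxa3 (1.79, SE 0.37) and Anxa7 (0.82, SE 0.21), and Anxa2 had a value of 0.65 (adjusted p = 0.187). Without Hyperoxia 1, 4 of 10 annexins tested rose, read against 15.2%. Of 23 listed claudins with a row of counts, 8 were tested with all libraries, of which 3 fell, Cldn10 (-1.29), Cldn15 (-1.54) and Cldn1 (-1.55). Without Hyperoxia 1, 2 of 9 claudins tested rose, Cldn4 and Cldn5 (0.71, adjusted p = 0.0408, edgeR). Cldn4 entered that test through the hyperoxic libraries alone, which fixed its direction. In the same fit 2 claudins fell, while Cldn1 at -1.40 (adjusted p = 0.0615, edgeR) no longer passed. Cldn5 was named after its values were seen. Of the 3 ABIN genes, which encode A20-binding proteins, 0 were called by edgeR, DESeq2 or limma-voom and 1 was higher at an unadjusted p under 0.05 in edgeR, and Tnip1 and Tnip2 had values of 0.42 and 0.44 (adjusted p = 0.133 and 0.228). Of 25 cornified envelope genes 16 had no count in any library, and Ppl, periplakin, was the gene tested (0.63, adjusted p = 0.18). Without Hyperoxia 1, Ppl rose (0.84, adjusted p = 0.0217, edgeR).

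The simple keratins were followed together across libraries, as log2 CPM within each group, in 6 relations. In Normoxia, Krt8 was related to Krt19 with a Pearson's r of 0.990 (exact permutation p = 7.94e-04, adjusted 0.00476; n = 7) and a Spearman's rho of 0.964 (exact permutation p = 0.00278, adjusted 0.0167), and r was 0.952 without the 2 libraries farthest from the median of Krt8, Normoxia 6 and Normoxia 7. With Krt18 the values were r = 0.804 (exact permutation p = 0.048, adjusted 0.072) and rho = 0.679 (adjusted exact p = 0.219), and r fell to 0.469 without these libraries, so that this relation rests on them. With Krt7 they were r = 0.613 (exact permutation p = 0.142, adjusted 0.17) and rho = 0.429 (adjusted exact p = 0.356), and r was -0.04 without them. Normoxia 6 and Normoxia 7 are also the normoxic libraries whose names carry the letters O to S, described below. Krt8 was 27.3 and 37.8 CPM in them and 52.8 to 80.3 CPM in the other 5. The part of the letter sets in these relations was not tested.

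In Hyperoxia, Krt8 was related to Krt18 with r = 0.975 (exact permutation p = 0.0111, adjusted 0.0333; n = 6) and rho = 0.829 (exact permutation p = 0.0583, adjusted 0.175), and r was 0.851 without Hyperoxia 1 and Hyperoxia 4. With Krt19 the values were r = 0.981 (exact permutation p = 0.0361, adjusted 0.072) and rho = 0.657 (adjusted exact p = 0.263), and r was 0.52 without these libraries. With Krt7 they were r = -0.75 (exact permutation p = 0.186, adjusted 0.186) and rho = -0.486 (adjusted exact p = 0.356), and r was -0.29 without them. Without Hyperoxia 1 alone, which leaves 5 hyperoxic libraries, r was 0.935 for Krt18 (adjusted exact permutation p = 0.133), 0.662 for Krt19 (0.26) and 0.115 for Krt7 (0.9), so that the values for Krt19 and Krt7 rest on that library.

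**Figure D5:**
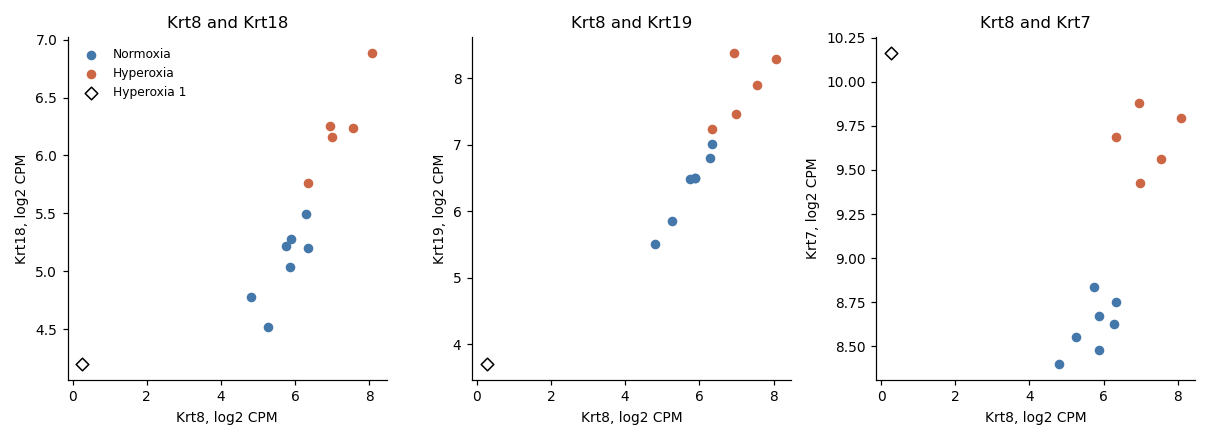
Level of Krt18, Krt19 and Krt7 (vertical axes) against Krt8 (horizontal axis) in each library, all in log2 CPM, for Normoxia, Hyperoxia and Hyperoxia 1 (open diamond). Krt18 and Krt19 are lowest where Krt8 is lowest, and Krt7 is highest in Hyperoxia 1.

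As a description with no test, genes were ranked by the likeness of their library-to-library variation to that of Krt8, after the mean of each group was subtracted, among 10111 genes that averaged 3 or more log2 CPM. Over 13 libraries the 5 most alike were Kansl2 (r = 0.993), Chil3 (0.992), M6pr (0.991), Actg1 (0.989) and Gng5 (0.986), and all were lower in Hyperoxia 1 than in the mean of the other 5 hyperoxic libraries, with log2 differences of -5.15 to -2.28 for 4 of them and a count of 0 in Hyperoxia 1 for Kansl2. Over the 12 libraries without Hyperoxia 1 the 5 were Yap1 (0.923), the Hippo pathway coactivator, Kansl2 (0.915), Pgs1 (0.912), Rnf220 (0.901) and Chil3 (0.897). Among the markers, Krt18 (0.869) and Krt19 (0.842) were the most like Krt8 over these 12 libraries, followed by Lgals3 (0.763), Sfn (0.709), Cldn4 (0.687), Sprr1a (0.543), Anxa1 (0.448), Krt7 (0.371) and Tnip3 (-0.24). With Hyperoxia 1 included, Krt7 (-0.55) and Lgals3 (-0.45) turned to negative values, Anxa1 was at 0.943, Krt19 at 0.975 and Krt18 at 0.948. The genes of a library share its depth and preparation, and the part of these in the likeness was not tested.

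The library names carry letters, B to M for 5 Normoxia and 3 Hyperoxia libraries and O to S for 2 and 3, and the labels do not say what the letters stand for. Among the O to S libraries, each of the markers but Tnip3 was higher in every hyperoxic than in every normoxic library, as were 27.6% of the 12496 genes tested, with log2 differences of 2.29 for Krt8, 1.65 for Krt18, 2.12 for Krt19, 1.20 for Krt7, 2.12 for Lgals3 and 0.65 for Anxa1. For the sparse genes the 2 normoxic libraries held at most 1 count each, below the floor of 3, against 55, 11 and 30 counts of Cldn4, 44, 22 and 42 of Sfn and 12, 8 and 11 of Sprr1a in Hyperoxia 4, 5 and 6. Among the B to M libraries without Hyperoxia 1, which leaves 2 hyperoxic libraries, the differences were 0.94 for Krt8, 0.96 for Krt18, 1.26 for Krt19, 0.98 for Krt7, 1.78 for Sfn, 1.53 for Lgals3 and 0.74 for Anxa1. With Hyperoxia 1 included they were -1.29 for Krt8, -0.14 for Krt19, -0.52 for Anxa1, 0.29 for Krt18, 1.24 for Sfn, 1.15 for Krt7 and 1.79 for Lgals3. These are differences of mean log2 CPM, and in them the direction of Krt8, Krt19 and Anxa1 turned on 1 library. Mean CPM with Hyperoxia 1 included was still higher in Hyperoxia: 83.1 against 65.3 for Krt8, 173 against 101 for Krt19 and 197 against 164 for Anxa1. The log2 value of Krt8 in Hyperoxia 1 comes from a single count, below the floor, and depends on the prior count. In these libraries Cldn4 held 0 to 3 counts in Normoxia, 10 and 16 in Hyperoxia 2 and 3 and 0 in Hyperoxia 1, and Sprr1a 1 to 6 counts in Normoxia and 6, 3 and 0 in these. Tnip3 had differences of 0.06, -0.08 without Hyperoxia 1, and -0.24 among the O to S libraries.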

How the data were processed

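Lung RNA of 7 Normoxia and 6 Hyperoxia samples was sequenced by Quant-seq, 1 library each. The authors ran the BioJupies pipeline, in which kallisto pseudoaligns the reads, and deposited counts for each gene symbol as whole numbers, and per the labels' processing notes the build was mm10 and the statistics used limma 3.54.2. The authors also deposited normalized values on a log10 scale, which equal log10 of CPM plus 1 to within 4.4e-16. All columns matched a sample, 0 being left unmapped. Total counts of 1607111 to 4540288 limit the precision of low genes, since a count of 3, taken as the floor, is 0.656 to 1.84 CPM.

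The quasi-likelihood test of edgeR 4.0.16 (R 4.3.3) was applied to the counts after TMM scaling and filterByExpr, without covariates, with Benjamini-Hochberg adjustment over all 12496 genes tested and a threshold of 0.05, and with a log2 fold change over 1.5 where stated. SEs were derived from the F statistic and log2 CPM used a prior count of 2. The sample titles gave the groups and their replicate numbers. The closest of 36 pairs of libraries of the same group differed by a chi-square of 3.9 per gene, so no library was counted as a copy. Correlations were tested by exact two-sided permutation (scipy 1.17.1). The genes named are the 10 markers, Cdkn1a, for every other list described at most the 3 tested genes of lowest adjusted p, the defining gene of each cell type, and the 5 genes most like Krt8, with exceptions stated in the text. The markers and lists were chosen with earlier results of these data known. Coordinates are from a GENCODE annotation of GRCm38 and promoter sequences from RefSeq, both matched by symbol. Alternatives were DESeq2 1.42.0, limma-voom and limma on the log10 values (limma 3.58.1), scaling by library size alone, by median of ratios or to pan-epithelial markers, a minimum of 10 counts in each library or no filter, a term for the replicate block or for the letter set of the names, and each library left out. Settings that left out Hyperoxia 1 together with another choice were added after the data were seen.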

Additional observations from a re-analysis of the deposited data

Results flagged for a closer look

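Samples far from the rest of their group were sought by the gap of the highest or lowest library to its nearest neighbour, as a share of the range of the group, in 40 groups of values (the 10 markers, Cdkn1a, 8 summed lists and the mean correlation with other libraries, in each group). Chance flags about 1 in 20 such groups, or 2 of 40, and 2 were flagged, no more than chance gives. The mean correlation of Hyperoxia 1 with the other libraries was 0.779, against 0.886 for the next lowest hyperoxic library, a share of 0.763. Tnip3 in Normoxia 3 was 8.50 CPM, against 7.14 CPM in the next highest normoxic library, a share of 0.575.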

How the results depend on the processing

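Among the 10 markers and Cdkn1a, whose fold changes were run under the alternatives, no called value changed sign, and of those not called, Tnip3 did under several and Anxa1 did with limma on the deposited log10 CPM values (-0.07). With DESeq2 and with scaling to pan-epithelial markers Krt19 passed the threshold at log2 fold changes of 1.23 and 1.34. Krt18 no longer passed with limma-voom (0.93) or with limma on the deposited log10 CPM values (0.76), and under these settings Krt8 was 0.46 and 0.28 and Krt19 0.85 and 0.71, none past the threshold. With the replicate number as a block, in 12 libraries, 1291 genes were called in place of 2819. In that fit 703 of 12358 genes rose and 2 markers did, while Krt8 (0.85), Krt18 (0.83), Krt19 (0.93), Sfn (2.06) and Cldn4 (3.15, no filter) did not pass. Same-numbered samples did not deviate together (correlations of -0.33 to 0.27), no label pairs them, and the block is not read as a weaker effect. With a log2 fold change over 1.5 as well, 488 genes were called, of which 194 rose (1.55% of 12496), and 2 markers rose.

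Each library was left out in turn. Without Hyperoxia 1, 8 markers rose and 7 did not overlap, Cldn4 included, where 15.2% of all genes tested rose and 8.47% did not overlap. Without any other library 4 rose and 2 did not overlap, where 1256 to 1508 genes rose and the share without overlap was not counted. Of the 6 keratin relations, 1 to 3 passed in place of 2 (1 without Hyperoxia 1, 2, 4, 5 or 6, when 5 hyperoxic libraries remain). Over these fits the log2 fold change ran from 0.90 to 1.51 for Krt8, 1.05 to 1.497 for Krt19, 0.19 to 0.68 for Anxa1 and 1.16 to 1.81 for Sprr1a. In the fits, only the loss of Hyperoxia 1 changed a marker's call. With Hyperoxia 1 left out and the letter set as a term, 8 markers rose, 7 of them without Cldn4, whose entry fixed its direction, and so did 2045 of 12752 genes, with Krt8 at 1.65, Krt19 at 1.74 and Anxa1 at 0.79. With it left out and no filter, 9 markers rose, as did 9.35% of 19658 genes. With it left out and scaling to pan-epithelial markers, 8 markers rose, again 7 without Cldn4, and so did 2212 of 12752 genes, with Krt8 at 1.60, Krt19 at 1.58 and Anxa1 at 0.75. The causes were not tested beyond the library left out. The median of all genes tested moved from -0.03 to 0.12 with scaling to pan-epithelial markers and to -0.16 with limma on the log10 values. Depth limits Cldn4, Sprr1a, Sfn and Tnip3, with at most 55 counts per library.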
